A study of Gossypium hirsutum with 6 samples.

Results

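Auxin synthesis, transport and perception genes were followed in cotton fibers between 5 and 15 days after flowering. They were found in the deposited gene table by their Swiss-Prot description, which had to name an auxin efflux carrier, an auxin transporter, a PIN-LIKES protein, the receptor TIR1 or an auxin signaling F-box protein, a YUCCA enzyme, an acid-amido synthetase or a tryptophan aminotransferase. This gave 184 genes of the 73622 in the table, 92 on A chromosomes, 90 on D chromosomes and 2 on unplaced contigs. The rule uses no measured value. Of the genes, 9 carry the name JAR1, an enzyme known for acting on jasmonic acid.

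The fibers came from upland cotton (Gossypium hirsutum), strain 63, an untreated line with no transgene in the labels. The groups are 5DPA and 15DPA, where DPA means days post-anthesis, with 3 biological replicates each and poly(A) RNA sequencing of every replicate. A cotton fiber is a single elongating cell of the seed coat epidermis. Library totals ran from 15.61 to 16.94 M counts. Genes described as protein E6, a fiber protein of cotton, summed to between 8270.5 and 11751.5 FPKM (reads scaled by gene length and library total) in the 5DPA libraries. In the 15DPA libraries they summed to between 12855.7 and 19617.0 FPKM, so fiber RNA was present in every library. These sums do not show how much RNA came from other cells.

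Auxin (indole-3-acetic acid, IAA) is made from tryptophan in a pair of steps, by tryptophan aminotransferases and then by YUCCA monooxygenases. Influx carriers of the AUX1/LAX family bring it into cells, PIN proteins export it, and PIN-LIKES proteins act on auxin inside the cell at the endoplasmic reticulum. The F-box receptors TIR1 and AFB bind auxin together with Aux/IAA repressors, which are then degraded, and the GH3 acid-amido synthetases join auxin to amino acids and so lower its free level. Auxin is known in cotton for promoting the start and growth of fibers on cultured ovules.

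Most of these genes were low in fibers. Only 71 of the 184 (38.6%) reached a mean of 1 FPKM over the 6 libraries, the minimum for the test, where 54.4% of all genes did. Of the other 113 genes, 27 had no read in any library, which allows up to 3 reads in a library, by counting error alone. A mean of at least 10 FPKM was reached by 14 genes. Of the 71 tested genes, 9 rose and 10 fell from 5DPA to 15DPA (edgeR quasi-likelihood test, with p adjusted after Benjamini and Hochberg and held to 0.05). These 19 are 26.8% of the tested members, beside 23.4% of all 40054 genes tested, of which 13.0% rose and 10.4% fell. The share called is near the background. A call with a change of at least 2-fold was seen for 15 of the 71 members, beside 5050 of the 40054 genes tested (12.6%). The median log2 change, 15DPA over 5DPA, was −0.23 for the members and −0.04 for all genes tested.

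The scaling between libraries moves the balance. TMM scaling, used for every log2 change below, set the median of all genes at −0.04, and library totals alone set it at −0.33. With library totals alone 7 members rose and 17 fell, beside 7.24% and 19.2% of all genes. By limma on log2(FPKM + 1) 6 rose and 19 fell, beside 7.3% and 22.3%, and by DESeq2 11 rose and 12 fell, beside 16.1% and 12.2%. Quantile normalization called 20 members (22.2% of all genes), limma on log2(FPKM + 0.1) called 24 (27.9%), and a minimum of 5 FPKM left 10 called (29.9%). With the replicate number as a block 8 rose and 8 fell, beside 12.6% and 9.83% of all genes. FPKM values carry no TMM scaling, so a gene can have lower FPKM at 15DPA and a log2 change near 0. A gene tested through a mean of 1 FPKM may have been kept by the stage where it was high: 20 of the 71 had a mean under 1 FPKM in a stage, among them 8 of the 19 called.

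Libraries of a stage were not alike. Replicate 2 of 15DPA was the highest 15DPA library for 45 of the 71 tested members (63.4%) and for 52.1% of all genes tested. It was also the highest 15DPA library for the genes of dividing cells: 116 histone and mitotic cyclin genes summed to 2112.3 FPKM there, to 1392.1 and 1373.5 FPKM in replicates 1 and 3, and to between 5469.9 and 8188.0 FPKM at 5DPA. Markers of green tissue (57 genes) summed to 46.8 FPKM in that replicate, to 25.6 and 34.6 FPKM in the other 15DPA replicates, and to between 74.0 and 79.8 FPKM at 5DPA. Seed coat phenolic genes (14 genes) stood at 1390.1 FPKM in it, at 974.0 and 550.0 FPKM in replicates 1 and 3, and at 951.0 to 1261.5 FPKM at 5DPA. Seed storage genes (48 genes, 22 with no read) ran from 68.1 to 78.8 FPKM at 15DPA and from 66.8 to 85.1 FPKM at 5DPA. Their ratio of stage means was 0.991 as deposited and 1.21 after division by the TMM factors. Of the 10 seed storage genes tested, 6 rose and 0 fell by edgeR, with a median log2 change of 1.02. Of all genes tested 13.0% rose and 10.4% fell. By the same test 2 of 106 genes of dividing cells rose and 76 fell, with a median log2 change of −1.84. Of 15 green tissue genes 0 rose and 6 fell, and of 9 seed coat phenolic genes 0 were called. Of 87 tested genes listed for fiber and epidermis 19 rose and 21 fell. Vessel wall genes (8 genes) never passed 3.15 FPKM. The part of other cells in the results below was not tested, and in bulk tissue fewer cells of a type and less RNA per cell cannot be told apart. Without replicate 2 of 15DPA 9 members rose and 16 fell, beside 15.1% and 13.5% of all genes (28.5% in all), 15 of the 19 calls kept their direction and passed, and the median was −0.50. Each of the other libraries was left out in turn as well. Without 15DPA replicate 1 there were 7 called members (5.79% of all genes), without 15DPA replicate 3 there were 22 (24.0%), and without 5DPA replicates 1, 2 and 3 there were 9 (11.9%), 7 (5.84%) and 10 (10.6%).

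**Figure D1:**
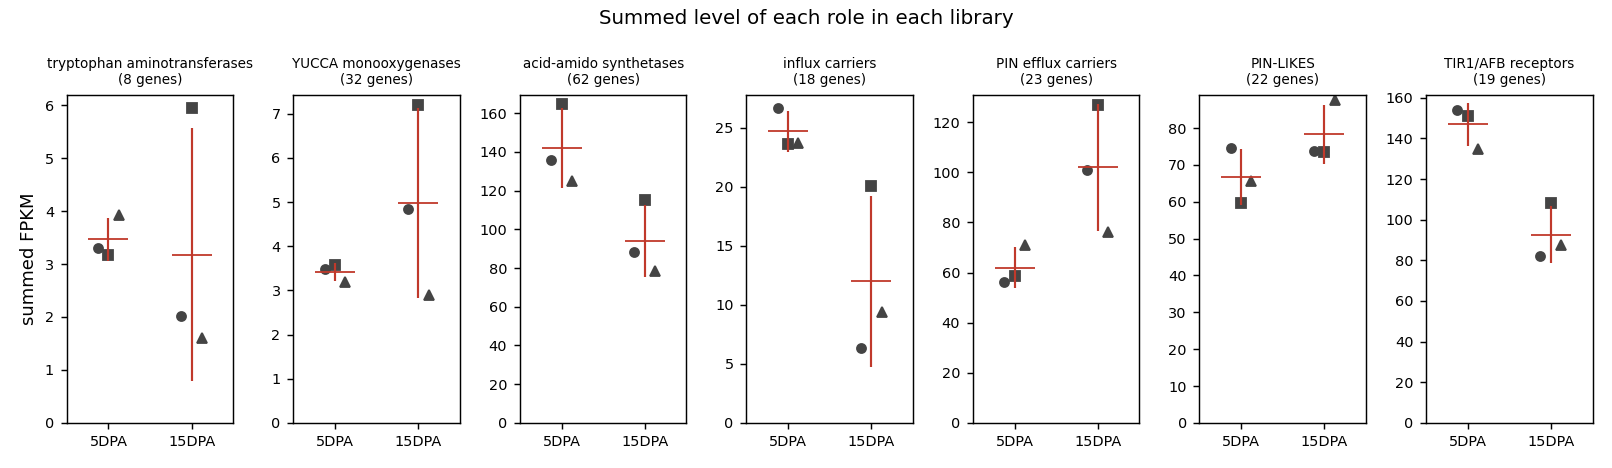
Summed FPKM of all genes of each role, with 1 point per library (circle, square and triangle for replicates 1, 2 and 3), for 5DPA and 15DPA; red marks are the mean ± SD of 3 libraries and each axis starts at 0. Receptor and acid-amido synthetase sums are lower in all 15DPA libraries, PIN sums are higher, and the influx carrier sum of 15DPA replicate 2 stands above the other 15DPA libraries.

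The 3 most abundant efflux carriers of the PIN family rose. Of 23 genes, 11 were tested, 3 rose and 2 fell (45.5% called, beside 23.4% of all genes tested). The role summed to 56.1, 58.6 and 71.2 FPKM in replicates 1, 2 and 3 of 5DPA and to 101, 127 and 76.3 FPKM in those of 15DPA, so the stages did not overlap. The ratio of the stage means was 1.64 as deposited and 1.98 after division by the TMM factors.

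Gh_A11G352000, described as PIN1c and located on A11 from 116199279 to 116202389, was the most abundant PIN gene. It had 7.76, 7.04 and 13.1 FPKM at 5DPA and 46.2, 40.2 and 22.0 FPKM at 15DPA, and it held 27.8% of the role's summed FPKM. All 15DPA libraries lay above all 5DPA libraries. The edgeR estimate was a log2 change of 2.24 ± 0.35 SE at adjusted p = 0.00822, and it passed with each library left out in turn. The like-described gene Gh_D11G355700, on D11 from 69255552 to 69259102, had 2.67, 3.59 and 3.44 FPKM at 5DPA and 1.27, 5.52 and 0.844 FPKM at 15DPA. The stages overlapped there, and replicate 2 of 15DPA was the highest library of all. The edgeR estimate was a log2 change of −0.11 ± 0.59 SE at adjusted p = 0.905. The FPKM ratio of the A11 gene to the D11 gene was 2.9, 1.96 and 3.81 in the 5DPA libraries and 36.4, 7.27 and 26.1 in the 15DPA libraries. This pair was singled out after its values were seen, and the difference was not tested.

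The next most abundant PIN genes were both described as PIN3, an efflux carrier known in Arabidopsis for the sideways flow of auxin. Gh_A01G170400, on A01 from 87814539 to 87817320, rose from 12.9, 11.3 and 16.1 FPKM to 23.0, 28.1 and 28.4 FPKM, with no overlap (edgeR log2 change 1.27 ± 0.19 SE at adjusted p = 0.00707). Gh_D01G167800, on D01 from 47400789 to 47403579, rose from 8.76, 11.4 and 15.2 FPKM to 24.1, 30.6 and 15.6 FPKM (edgeR log2 change 1.26 ± 0.27 SE at adjusted p = 0.0189). Its 15DPA replicate 3 was just above the highest 5DPA library. The ratio of the A01 to the D01 gene ran from 0.991 to 1.47 at 5DPA and from 0.919 to 1.82 at 15DPA, so here the stages overlapped.

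In the other direction, Gh_A02G078700, described as PIN6 and located on A02 from 11746825 to 11751054, fell from 7.34, 8.88 and 7.29 FPKM to 1.16, 3.29 and 1.39 FPKM (edgeR log2 change −1.74 ± 0.34 SE at adjusted p = 0.0138). Every 15DPA library was below every 5DPA library, with replicate 2 the nearest to them. Gh_D09G185700, described as PIN1a and located on D09 from 45866035 to 45869230, fell from 1.83, 2.29 and 2.64 FPKM to 0.557, 0.642 and 1.16 FPKM (edgeR log2 change −1.22 ± 0.37 SE at adjusted p = 0.0485). The other 4 tested PIN1a genes had log2 changes from −0.13 to 0.73 and did not pass. Gh_D12G289400 and Gh_A12G295600 were highest in replicate 2 of 15DPA, at 5.52 and 3.58 FPKM, with 1.32 and 1.76 FPKM and 0.501 and 0.957 FPKM in replicates 1 and 3. Their log2 changes turned from 0.52 and 0.73 to −0.26 and −0.35 without that replicate. Both genes were picked after their values were seen.

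The PIN calls on A11 and A01 held with each library left out. Gh_D01G167800 missed the threshold when 15DPA replicate 1 or 5DPA replicates 1 or 2 were left out (edgeR adjusted p up to 0.0777), Gh_A02G078700 when 15DPA replicate 1 or 5DPA replicate 2 was (up to 0.0570), and Gh_D09G185700 in every such fit but that lacking 15DPA replicate 3 (up to 0.150). Gh_D09G185700 also missed it under quantile normalization (limma-voom adjusted p = 0.0953). Gene models affect this family as well. On A03, 3 models described as PIN7, PIN3 and PIN3 lie within 86271055 to 86273282, separated by 180 and 241 bases. Together they held 24, 24 and 16 reads at 5DPA and 2, 17 and 1 reads at 15DPA, and none reached 1 FPKM on average.

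**Figure D2:**
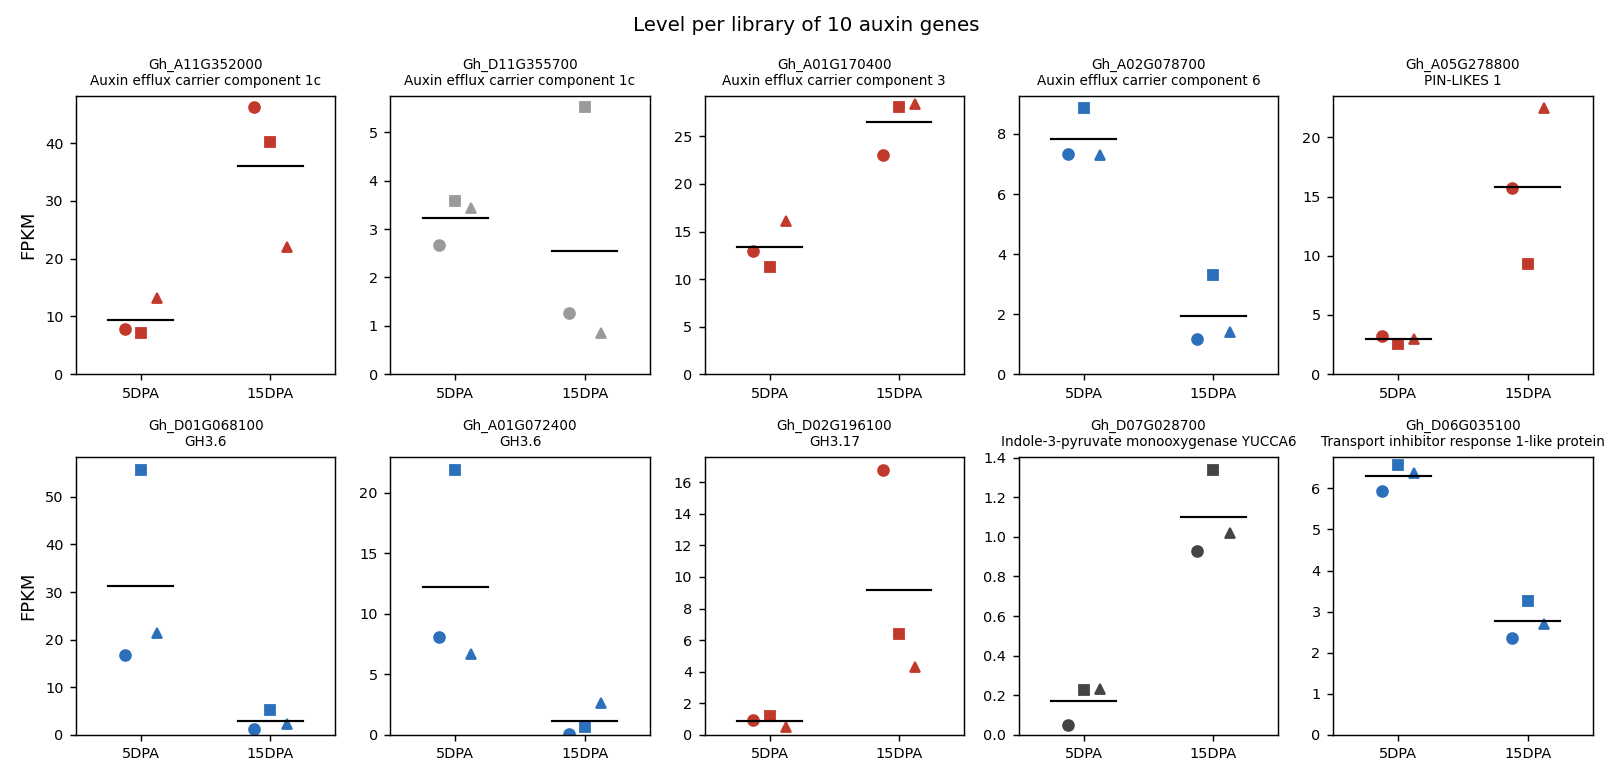
FPKM per library of 10 auxin genes at 5DPA and 15DPA (circle, square and triangle for replicates 1, 2 and 3; black lines are means of 3 libraries; red called higher, blue called lower, light grey not called, dark grey not tested). The PIN1c gene on A11 runs from 22.0 to 46.2 FPKM at 15DPA, while its D11 counterpart by description overlaps between the stages.

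Of 22 PIN-LIKES genes, 11 were tested, 3 rose and 0 fell by edgeR, a share called of 27.3% beside the 23.4% of all genes tested. The 3 that rose were described as PIN-LIKES 1. An unadjusted p under 0.05 was seen for 5 of the 11, beside 39.5% of all genes tested. DESeq2 called 4 higher and 0 lower, beside 16.1% and 12.2% of all genes. With no minimum level 19 were tested, with 4 higher and 1 lower (Gh_D13G013700), beside 8.96% and 7.01% of all genes. When 15DPA replicate 2 was left out, 4 of the 11 were higher and 1 lower (Gh_D05G292200), beside 15.1% and 13.5%. The role summed to 74.7, 59.6 and 65.7 FPKM at 5DPA and to 73.8, 73.5 and 87.6 FPKM at 15DPA, and these ranges overlapped. The ratio of stage means was 1.18 as deposited and 1.44 after division by the TMM factors.

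The most abundant was Gh_D10G121300, described as PIN-LIKES 6, on D10 from 18612814 to 18616109. It had 23.2, 18.6 and 24.2 FPKM at 5DPA and 23.3, 25.5 and 34.6 FPKM at 15DPA, and it did not pass (edgeR log2 change 0.63 ± 0.22 SE at adjusted p = 0.0696), though DESeq2 called it higher (adjusted p = 0.0309), as did edgeR when 15DPA replicate 2 was left out (0.0443). It held 34.3% of the role's summed FPKM. Next came Gh_A03G146700, described as PIN-LIKES 2, on A03 from 87022106 to 87024282, with 12.5, 10.3 and 10.9 FPKM at 5DPA and 10.7, 11.5 and 10.6 FPKM at 15DPA (edgeR log2 change 0.25 ± 0.14 SE at adjusted p = 0.231). Gh_D07G081800, also PIN-LIKES 2, on D07 from 9504198 to 9505911, had 9.45, 9.9 and 9.13 FPKM and then 5.38, 9.02 and 3.66 FPKM. Its FPKM ranges did not overlap, but the log2 change of −0.39 ± 0.27 did not pass (SE, edgeR adjusted p = 0.313). None of the 4 PIN-LIKES 2 genes tested passed, where 23.4% of all genes tested did.

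Of the 5 PIN-LIKES 1 genes tested, 3 rose, where 13.0% of all genes tested did. Gh_A05G278800, on A05 from 35821943 to 35830386, went from 3.22, 2.56 and 3.0 FPKM to 15.7, 9.32 and 22.5 FPKM, with the stages well apart (edgeR log2 change 2.75 ± 0.37 SE at adjusted p = 0.00547). Gh_A02G211000, on A02 from 105629372 to 105633886, was nearly silent at 5DPA, with 0, 4 and 3 reads, and had 74, 34 and 63 reads at 15DPA. The edgeR estimate was a log2 change of 4.87 ± 0.73 SE at adjusted p = 0.00738, and it was tested only through its 15DPA level. Gh_D05G292100, on D05 from 29927124 to 29929604, rose from 0.795, 0.946 and 0.552 FPKM to 1.63, 1.46 and 1.8 FPKM (edgeR log2 change 1.39 ± 0.35 SE at adjusted p = 0.0291). It missed the threshold with library totals alone (adjusted p = 0.0579), by limma on log2(FPKM + 1) (0.0634) and log2(FPKM + 0.1) (0.0797), and in every such fit but that lacking 15DPA replicate 2 (up to 0.0974). The calls on A05 and A02 held with each library left out.

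Both A05 and D05 carry a second tested PIN-LIKES 1 gene close by, 69.1 kilobases from Gh_A05G278800 and 21.4 kilobases from Gh_D05G292100. Nearer to the A05 gene lies an untested PIN-LIKES 1 model, Gh_A05G278900, from 35831973 to 35834503. It had 0 reads in every 5DPA library and 3, 8 and 0 reads at 15DPA. With no minimum level its log2 change was 5.0 and did not pass (edgeR adjusted p = 0.118). The neighbor Gh_A05G279000 had 2.93, 0.953 and 2.0 FPKM at 5DPA and 0.412, 0.612 and 0.937 FPKM at 15DPA, a range wholly below that of 5DPA, and did not pass (edgeR log2 change −1.29 ± 0.51 SE at adjusted p = 0.105). Gh_D05G292200 had 2.76, 2.06 and 2.07 FPKM and then 0.882, 2.17 and 0.541 FPKM, which overlapped (edgeR log2 change −0.68 ± 0.44 SE at adjusted p = 0.284). It was called lower when 15DPA replicate 2 was left out, with a log2 change of −1.32 (adjusted p = 0.0314). In both places the fitted change of the tested neighbor had the other sign. These neighbors were named after their values were seen, and the difference between neighbors was not tested. The untested A05 model had the same sign as Gh_A05G278800. A further PIN-LIKES 1 gene under the minimum level, Gh_D03G000400, had 2, 8 and 3 reads at 5DPA and 48, 16 and 60 reads at 15DPA, and with no minimum level edgeR called it higher (adjusted p = 0.0115). The PIN-LIKES 3 gene Gh_D13G013700 had 10, 2 and 13 reads at 5DPA and 0 reads in every 15DPA library, and was called lower under that setting (adjusted p = 0.0466).

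Influx carriers, described as auxin transporter-like proteins, were low throughout. Of 18 genes, 9 were tested, 0 rose and 3 fell by edgeR (33.3% called, beside 23.4% of all genes tested). An unadjusted p under 0.05 was seen for 6, beside 39.5% of all genes tested. DESeq2 called 0 higher and 4 lower, beside 16.1% and 12.2% of all genes. Means over the 6 libraries of the tested genes ran from 1.10 to 2.06 FPKM. The median log2 change was −1.51, beside −0.04 for all genes tested. Of the 9 genes, 7 had a mean under 1 FPKM in a stage. Among them were the 3 called lower, with 15DPA means of 0.478, 0.438 and 0.359 FPKM. These 3 reached the minimum only through their 5DPA level, so the median and the falls lean on that selection. With no minimum level the median of all 18 genes was −1.25, beside −0.06 for all genes. As a group the 18 genes summed to 26.7, 23.6 and 23.7 FPKM at 5DPA and to 6.38, 20.1 and 9.37 FPKM at 15DPA. The 15DPA sums were all lower, but replicate 2 stood much nearer to 5DPA than the other libraries, and it was the highest 15DPA library for 16 of the 18 genes.

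The genes that fell were a like-described pair on A10 and D10 and a gene on D01. Gh_A10G243600, transporter-like protein 2, on A10 from 113760595 to 113764541, went from 2.23, 1.52 and 1.82 FPKM to 0.16, 0.718 and 0.557 FPKM (edgeR log2 change −1.68 ± 0.48 SE at adjusted p = 0.0410). Gh_D10G275400, on D10 from 64835238 to 64839019, went from 1.98, 1.53 and 1.79 FPKM to 0.173, 0.721 and 0.421 FPKM (edgeR log2 change −1.74 ± 0.45 SE at adjusted p = 0.0319). The ratio of the A10 to the D10 gene stayed between 0.926 and 1.32 in all 6 libraries. Gh_D01G184600, transporter-like protein 5, on D01 from 54201082 to 54204986, had 67, 93 and 80 reads at 5DPA and 5, 29 and 1 reads at 15DPA (edgeR log2 change −2.55 ± 0.75 SE at adjusted p = 0.0462). All 3 genes had stages that did not overlap, and replicate 2 was their highest 15DPA library.

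Other influx carriers did not pass. The most abundant, Gh_D04G147900, on D04 from 46048594 to 46053176, had 3.79, 2.05 and 1.47 FPKM at 5DPA and 0.541, 1.87 and 2.66 FPKM at 15DPA (edgeR adjusted p = 0.782). Gh_D02G249700, on D02 from 70081485 to 70085503, had 2.67, 2.99 and 3.75 FPKM and then 0.661, 1.71 and 0.172 FPKM (edgeR log2 change −1.63 ± 0.61 SE at adjusted p = 0.0881). Gh_A04G109800, on A04 from 73086031 to 73090405, was the only tested influx gene with a positive change, at 0.92 ± 0.34 SE (edgeR, adjusted p = 0.0845), from 2.29, 1.26 and 1.03 FPKM to 2.11, 2.15 and 2.75 FPKM. Quantile normalization called it higher (limma-voom adjusted p = 0.0369). The count of 3 lower became 6 (13.5% of all genes lower) when 15DPA replicate 2 was left out and 3 (11.2%) when 15DPA replicate 3 was. It was 0 when 15DPA replicate 1 (2.05%) or 5DPA replicate 1 (4.77%), 2 (2.11%) or 3 (3.9%) was left out.

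**Figure D3:**
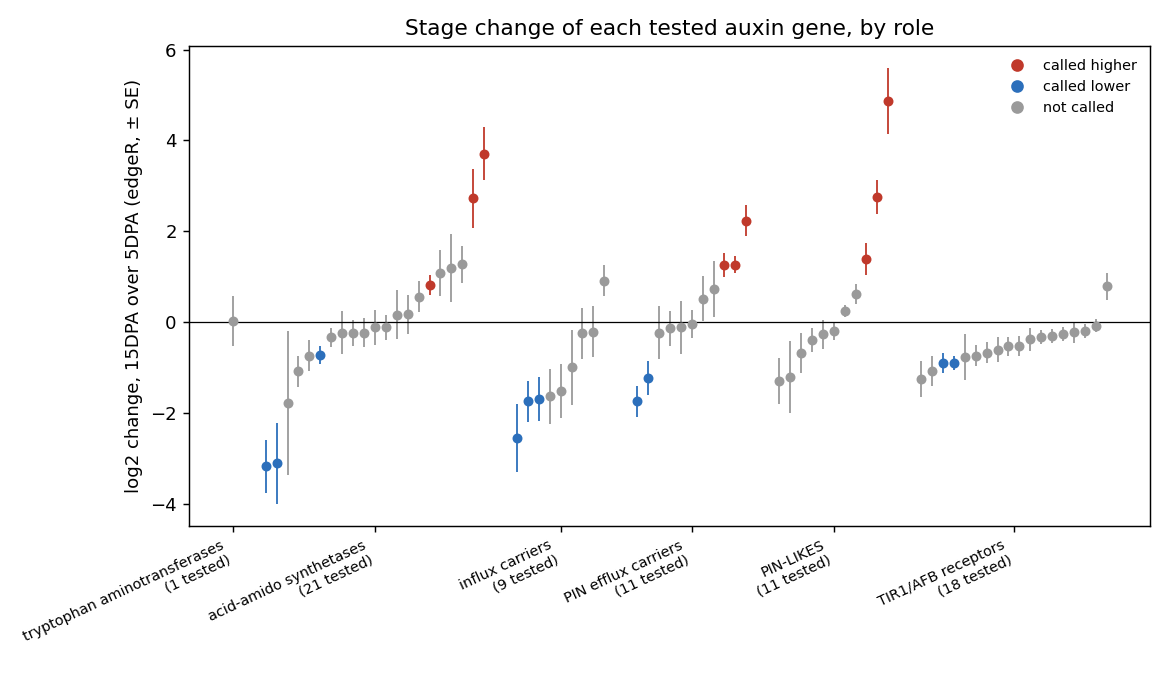
Log2 change (15DPA over 5DPA) ± SE from edgeR for each of the 71 tested auxin genes, ordered within each role; red points were called higher, blue lower and grey not called. Of the 18 receptors 17 lie below 0, while acid-amido synthetases, PIN and PIN-LIKES genes spread to both sides.

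Of the 19 receptor genes, 18 reached the minimum level and were tested. By edgeR 0 rose and 2 fell (11.1%, near the 10.4% of all genes tested that fell). An unadjusted p under 0.05 was seen for 9, beside 39.5% of all genes tested. DESeq2 called 0 higher and 3 lower, beside 16.1% and 12.2% of all genes. The sum over the 19 genes was 154, 151 and 135 FPKM at 5DPA and 82.1, 108 and 87.4 FPKM at 15DPA, and no 15DPA library reached the 5DPA range. The ratio of stage means was 0.632 as deposited and 0.771 after division by the TMM factors. In FPKM, 16 of the 18 had 15DPA ranges wholly below those of 5DPA, where 37.3% of all genes tested did. The fitted change was below 0 for 17 of the 18, with a median of −0.53.

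How many receptors passed depended on the scaling. TMM gave 2 lower, DESeq2 3, quantile normalization 4 (10.9% of all genes lower), and library totals alone and limma on log2(FPKM + 1) gave 8 each (19.2% and 22.3%). Gh_D06G035100, a TIR1-like receptor on D06 from 3962165 to 3965472, fell from 5.93, 6.56 and 6.38 FPKM to 2.36, 3.26 and 2.7 FPKM (edgeR log2 change −0.89 ± 0.15 SE at adjusted p = 0.0104) and passed with each library left out. Its replicates lay close together in both stages. Gh_A06G035600, with the same description, had 2.95, 3.81 and 3.0 FPKM and then 2.28, 1.84 and 2.63 FPKM (edgeR adjusted p = 0.497). Gh_A10G013200, described as TIR1, on A10 from 1195917 to 1200386, fell from 2.44, 2.61 and 2.71 FPKM to 0.871, 1.41 and 1.13 FPKM (edgeR log2 change −0.90 ± 0.22 SE at adjusted p = 0.0252), a call lost when 15DPA replicate 1 or a 5DPA replicate was left out (up to 0.0875).

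The most abundant receptors did not pass under TMM. Gh_A11G068600, an AFB2 gene on A11 from 6037580 to 6040557, had 20.3, 20.8 and 15.3 FPKM at 5DPA and 12.0, 15.0 and 10.1 FPKM at 15DPA (edgeR log2 change −0.32 ± 0.16 SE at adjusted p = 0.185). Gh_A07G257700, also AFB2, on A07 from 96312222 to 96314466, had 19.7, 16.8 and 15.2 FPKM and then 13.5, 13.9 and 12.8 FPKM (edgeR log2 change −0.07 ± 0.14 SE at adjusted p = 0.743). The TIR1 gene Gh_D08G075500, on D08 from 10900280 to 10903620, went from 17.7, 16.7 and 19.1 FPKM to 7.09, 11.3 and 11.9 FPKM (edgeR log2 change −0.53 ± 0.20 SE at adjusted p = 0.0948). These 3 genes show FPKM ranges that did not overlap beside TMM changes that did not pass. Gh_A08G080300, described as TIR1 as well, on A08 from 14538800 to 14542161, had 17.4, 12.9 and 15.6 FPKM and then 6.2, 9.78 and 10.2 FPKM (edgeR log2 change −0.52 ± 0.22 SE at adjusted p = 0.117). Both TIR1 genes passed with library totals alone (adjusted p = 0.0284 and 0.0344). Among the tested receptors only Gh_A05G108400, an AFB2 gene, had a positive change, 0.79 ± 0.29 SE (edgeR, adjusted p = 0.0847).

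Acid-amido synthetases had calls in both directions. Of the 3 GH3.6 genes tested 2 fell, where 10.4% of all genes tested did. The 1 tested gene described as probable GH3.6 did not pass. Of 62 genes, 53 were described as acting on indole-3-acetic acid and 9 on jasmonic acid. Of the 21 tested, 3 rose and 3 fell (28.6% called, beside 23.4% of all genes tested), all 6 described as acting on indole-3-acetic acid. The role summed to 136, 165 and 125 FPKM at 5DPA and to 88.5, 115 and 78.5 FPKM at 15DPA, without overlap. By description the GH3.6 group of 6 genes, without 2 described as probable GH3.6, had the lowest ratio of stage means among groups with a called gene, with 53.5 ± 25.3 FPKM in 5DPA and 6.70 ± 4.58 FPKM in 15DPA fibers (n = 3, SD). The GH3.1 group of 10 genes had 32.6 ± 9.36 and 40.9 ± 11.2 FPKM, and the GH3.17 group of 29 genes 37.9 ± 0.906 and 31.9 ± 3.81 FPKM.

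Gh_D01G068100, described as GH3.6, on D01 from 8220048 to 8222666, fell from 16.7, 55.7 and 21.3 FPKM to 1.26, 5.13 and 2.2 FPKM. Replicate 2 was the highest in both stages, and the stages did not overlap (edgeR log2 change −3.17 ± 0.58 SE at adjusted p = 0.0123). Gh_A01G072400, also GH3.6, on A01 from 9978992 to 9981583, fell from 8.12, 21.9 and 6.68 FPKM to 0.108, 0.65 and 2.65 FPKM (edgeR log2 change −3.10 ± 0.89 SE at adjusted p = 0.0433). The first of these calls held with each library left out, at an adjusted p of up to 0.0499. The second was lost in every such fit but that lacking 15DPA replicate 3 (up to 0.148). The GH3.6 gene Gh_A03G188900 was chosen after its values were seen: it had 24.0 FPKM in 5DPA replicate 1 and 0.0571 to 3.26 FPKM in every other library. Its change of −1.78 turned to 2.56 without that library and did not pass (edgeR adjusted p = 0.432). The probable GH3.6 gene Gh_A08G210600 had 1.23, 0.628 and 0.844 FPKM at 5DPA and 2.28, 2.05 and 1.04 FPKM at 15DPA, which overlapped (edgeR log2 change 1.28 ± 0.41 SE at adjusted p = 0.0584). It was called higher by DESeq2 (adjusted p = 0.0322) and under quantile normalization (limma-voom adjusted p = 0.0311).

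The remaining gene that fell was Gh_A04G121900, described as GH3.17, on A04 from 77495298 to 77497336. It went from 19.3, 16.9 and 19.4 FPKM to 6.91, 9.86 and 10.8 FPKM, with no overlap (edgeR log2 change −0.72 ± 0.19 SE at adjusted p = 0.0357), a call lost in every such fit but that lacking 15DPA replicate 3 (up to 0.111). Another GH3.17 gene rose: Gh_D02G196100, on D02 from 63827759 to 63830440, went from 0.925, 1.2 and 0.493 FPKM to 16.8, 6.37 and 4.31 FPKM (edgeR log2 change 3.71 ± 0.59 SE at adjusted p = 0.00862). It passed with each library left out, with a log2 change of 2.86 to 4.05. GH3.17 genes thus included a call in each direction.

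The other rises were in the GH3.1 group. Gh_D11G214400, on D11 from 26761735 to 26764150, rose from 0.347, 0.733 and 0.656 FPKM to 1.58, 1.54 and 6.12 FPKM (edgeR log2 change 2.73 ± 0.65 SE at adjusted p = 0.0251). Replicate 3 was far above the other 15DPA libraries, and the call was lost without 15DPA replicate 1 or any 5DPA replicate (up to 0.0813), by limma on log2(FPKM + 1) (adjusted p = 0.0615) and under quantile normalization (0.0617). Gh_D02G230900, on D02 from 68486935 to 68489303, rose from 8.45, 9.15 and 12.2 FPKM to 14.1, 18.6 and 10.7 FPKM by edgeR (log2 change 0.82 ± 0.22 SE, adjusted p = 0.0363), although its FPKM ranges overlapped. It did not pass with library totals alone (adjusted p = 0.122), by limma (0.132), under quantile normalization (0.0591) or without 15DPA replicates 1 or 2 or 5DPA replicates 1 or 2 (up to 0.127). Gh_A03G213800, on A03 from 107202542 to 107204865, with the same description and similar levels, had 8.4, 10.8 and 17.4 FPKM and then 13.7, 21.9 and 9.56 FPKM, which missed the threshold (edgeR, adjusted p = 0.257). The ratio of this A03 gene to the D02 gene ran from 0.893 to 1.43 over the 6 libraries.

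None of the 3 tested JAR1 genes passed by edgeR or DESeq2, and none had an unadjusted p under 0.05. Of all genes tested 23.4% passed by edgeR and 39.5% had an unadjusted p under 0.05. The most abundant, Gh_D07G149700, had 7.93, 5.25 and 5.32 FPKM at 5DPA and 7.17, 8.68 and 1.4 FPKM at 15DPA, with replicate 3 the lowest library (edgeR adjusted p = 0.843).

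**Figure D4:**
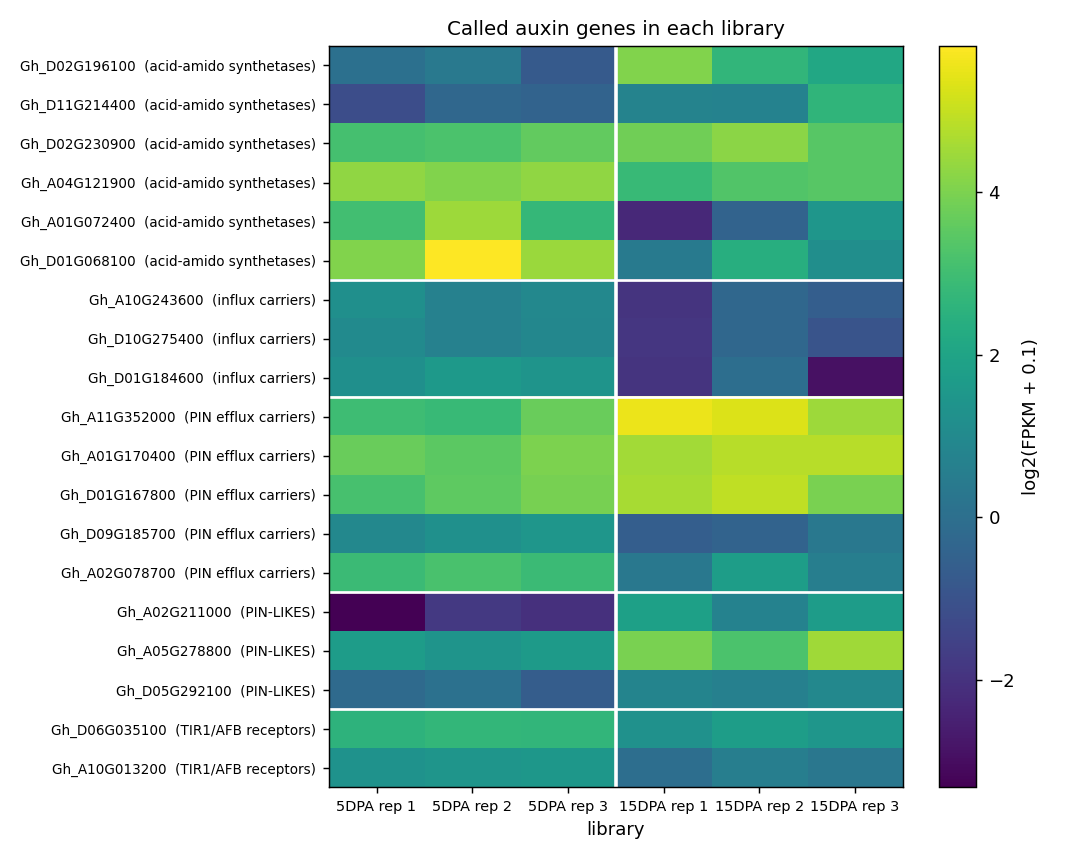
Heat map of log2(FPKM + 0.1) for the 19 auxin genes called between stages, grouped by role and ordered by log2 change within a role, in the 3 libraries of 5DPA and of 15DPA. The GH3.6 gene on D01 reaches 55.7 FPKM in 5DPA replicate 2, and the PIN-LIKES 1 gene on A02 is darkest at 5DPA, where replicate 1 had 0 reads.

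Synthesis genes were the lowest role of all. None of the 32 YUCCA genes reached a mean of 1 FPKM, and 8 had no read in any library. The highest mean over the 6 libraries was 0.965 FPKM. All 32 together summed to 3.49, 3.58 and 3.2 FPKM at 5DPA and to 4.84, 7.21 and 2.89 FPKM at 15DPA, which overlapped. The most abundant, Gh_A07G168300, described as YUCCA8, on A07 from 41838344 to 41839809, had 0.896, 0.374 and 0.565 FPKM at 5DPA and 2.1, 1.65 and 0.199 FPKM at 15DPA. A second YUCCA8 gene, Gh_A07G227500, had 0.2, 0.0471 and 0.332 FPKM and then 0.722, 1.06 and 0.301 FPKM, and the YUCCA10 gene Gh_D08G075000 had 0.308, 0.952 and 0.709 FPKM and then 0.169, 0.771 and 0.044 FPKM. All of these overlapped between stages.

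The YUCCA6 genes on A07 and D07 did not. Gh_D07G028700, on D07 from 2965413 to 2968331, had 1, 5 and 5 reads at 5DPA and 20, 30 and 21 reads at 15DPA. Gh_A07G027600, on A07 from 3061957 to 3064987, had 1, 1 and 0 reads and then 8, 10 and 14 reads. With no minimum level, a setting that tested 57565 genes and called 16.0% of them, edgeR called both higher (adjusted p = 0.0136 and 0.0190), with a log2 change of 2.94 for the D07 gene. These were the only YUCCA genes called under that setting, in which 24 were tested.

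Tryptophan aminotransferases numbered 8, of which 3 had no read and 1 was tested. That gene, Gh_Contig00641G001800, described as tryptophan aminotransferase-related protein 2, had 1.85, 1.83 and 2.71 FPKM at 5DPA and 0.937, 3.75 and 0.808 FPKM at 15DPA (edgeR log2 change 0.02 ± 0.55 SE at adjusted p = 0.985; DESeq2 did not call it, and its unadjusted p was not under 0.05). Here too replicate 2 of 15DPA was the highest library, and without it the change was −0.93. Gh_D09G183300 and Gh_A01G127800 had means of 0.780 and 0.510 FPKM at 5DPA and 0.456 and 0.589 FPKM at 15DPA, and their ranges overlapped. Gh_D07G167300, described as related protein 3, had 0, 2 and 0 reads at 5DPA and 12, 8 and 17 reads at 15DPA, and with no minimum level edgeR called it higher (adjusted p = 0.0246).

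With no minimum level a further 10 members under 1 FPKM were called, 6 higher and 4 lower, out of 86 with a read. Of all 57565 genes in that setting 8.96% were higher and 7.01% lower, but these include the 40054 genes at 1 FPKM or more. The share among genes under 1 FPKM alone was not taken. Besides the genes above, the JAR1 gene Gh_A11G102700 had 0, 0 and 1 reads at 5DPA and 45, 19 and 37 reads at 15DPA (edgeR adjusted p = 0.00301), and the GH3.17 gene Gh_D04G026900 had 1, 0 and 0 reads and then 6, 16 and 8 reads (adjusted p = 0.0199). The GH3.10 genes Gh_A13G057300 and Gh_D13G072100 were lower: the first had 25, 54 and 38 reads and then 6, 6 and 8 reads (adjusted p = 0.0152), and the second had 15, 14 and 36 reads and then 0, 1 and 0 reads (adjusted p = 0.00961). The influx gene Gh_D06G046600 was lower as well (adjusted p = 0.0395), with 19, 24 and 44 reads at 5DPA and 3, 9 and 1 reads at 15DPA. At such levels a few reads set the value, and a gene with reads in a single stage could enter that setting only through that stage.

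**Figure D5:**
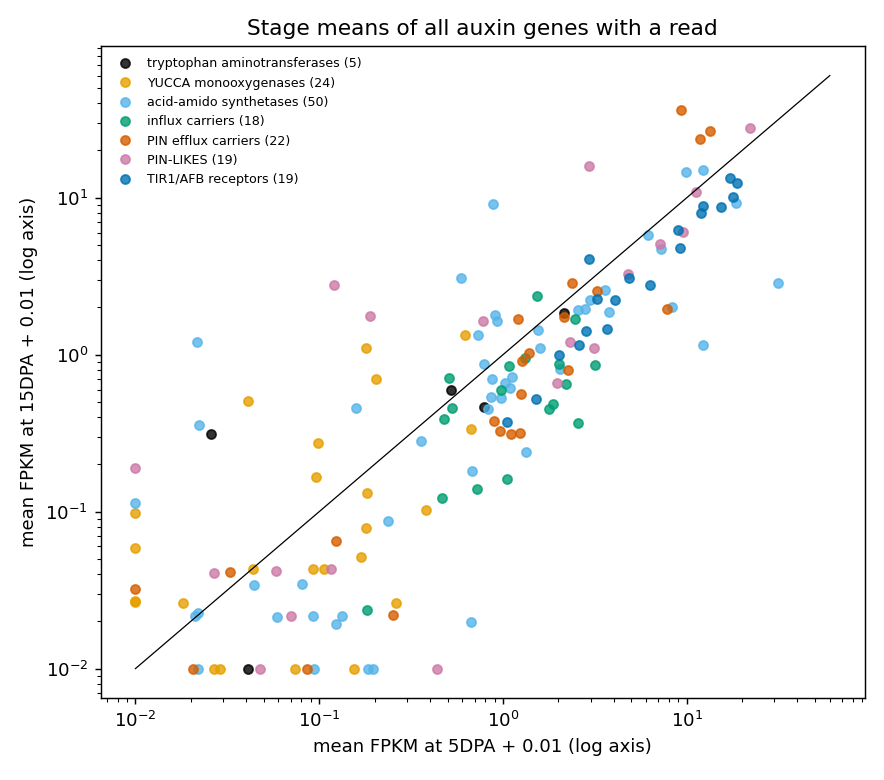
Mean FPKM at 15DPA against mean FPKM at 5DPA for every auxin gene with a read (3 libraries per stage, log axes, 0.01 added so that genes at 0 appear at the edge), colored by role, with the line of equal levels. YUCCA genes all lie low, up to a mean of 0.965 FPKM over the 6 libraries, and most receptors lie below the line.

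Other genes of the auxin pathway were taken from lists by description, 279 of 517 tested, of which 44 rose and 33 fell (27.6%, beside 23.4% of all genes tested). Of the 279, 28 had a mean under 1 FPKM in a stage and were kept by the other stage. Among them were the AUX22, ARF4, SAUR50, ABCB4 and anthranilate synthase beta genes named below. Of 60 tested Aux/IAA repressors, the partners of the receptors, 14 rose and 5 fell (31.7% called), beside 13.0% and 10.4% of all genes tested. The most abundant, the IAA9 gene Gh_D06G030500, had 149, 172 and 174 FPKM at 5DPA and 103, 162 and 62.1 FPKM at 15DPA (edgeR adjusted p = 0.425). The AUX22 gene Gh_D06G224000, on D06 from 63854602 to 63858498, rose from 0.343, 0.536 and 0.432 FPKM to 7.45, 10.0 and 7.53 FPKM, with replicates close together (edgeR log2 change 4.49 ± 0.32 SE at adjusted p = 0.00152). With library totals alone the repressors split into 10 higher and 9 lower, beside 7.24% and 19.2% of all genes.

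Of 65 tested auxin response factors, the transcription factors that the repressors hold in check, 7 rose and 15 fell (33.8% called). Of all genes tested 13.0% rose and 10.4% fell. With library totals alone 3 rose and 19 fell, beside 7.24% and 19.2% of all genes. The most abundant, the ARF9 gene Gh_A12G129300, stood at 60.2 ± 7.85 FPKM (SD, n = 3) in 5DPA and 61.2 ± 9.71 FPKM in 15DPA fibers and did not pass (edgeR, adjusted p = 0.299). The ARF4 gene Gh_A05G061200 fell from 2.04, 3.77 and 2.31 FPKM to 0.226, 0.749 and 0.105 FPKM (edgeR log2 change −2.63 ± 0.58 SE at adjusted p = 0.0198). Of 49 tested SAUR genes, a family of early auxin-induced genes, 16 rose and 3 fell (38.8% called), beside the same 13.0% and 10.4%. With library totals alone 12 rose and 3 fell, beside 7.24% and 19.2% of all genes. The most abundant, the SAUR71 gene Gh_D12G030800, rose from 108, 85.2 and 129 FPKM to 224, 221 and 358 FPKM (edgeR log2 change 1.61 ± 0.28 SE at adjusted p = 0.0108). The SAUR50 gene Gh_D05G187700 rose from 0.201, 0.757 and 0.572 FPKM to 13.7, 8.17 and 0.201 FPKM (edgeR adjusted p = 0.0448), so its 15DPA replicate 3 was as low as 5DPA, and it did not pass with library totals alone (0.0546).

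Among 48 tested partners of the receptors in the ubiquitin ligase and co-repressors 2 rose and 1 fell (6.25%), beside 13.0% and 10.4% of all genes. With library totals alone 2 rose and 10 fell, beside 7.24% and 19.2% of all genes. The TOPLESS-related gene Gh_D06G113000, a co-repressor, rose from 5.61, 3.01 and 4.14 FPKM to 18.3, 17.3 and 16.7 FPKM (edgeR log2 change 2.33 ± 0.24 SE at adjusted p = 0.00274), while the most abundant SKP1-like gene, Gh_A02G204300, had 190 ± 20.7 and 180 ± 22.2 FPKM (SD, n = 3 each; edgeR adjusted p = 0.372). Of 22 tested transport kinases and ABCB carriers, which steer or carry auxin export, 1 rose and 5 fell (27.3%, beside 23.4% of all genes tested). The ABCB19 gene Gh_A07G240800 fell from 30.9, 30.1 and 31.4 FPKM to 9.02, 11.5 and 13.6 FPKM (edgeR log2 change −1.14 ± 0.18 SE at adjusted p = 0.00876), and the ABCB4 gene Gh_D12G137800 rose from 0.953, 0.581 and 1.16 FPKM to 3.1, 3.41 and 2.56 FPKM (edgeR log2 change 2.03 ± 0.29 SE at adjusted p = 0.00646). The abundant ABCB19 gene was lower, while the PIN1c gene on A11 and the PIN3 genes on A01 and D01 were higher. Both families held calls in each direction, with the PIN6 gene on A02 and the PIN1a gene on D09 lower and ABCB4 higher.

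Of 24 tested tryptophan supply genes, 4 rose and 3 fell (29.2%, beside 23.4% of all genes tested). With library totals alone 2 rose and 8 fell, beside 7.24% and 19.2% of all genes. The anthranilate synthase beta gene Gh_A13G028700 rose from 0.857, 0.738 and 0.608 FPKM to 2.81, 3.88 and 7.5 FPKM (edgeR log2 change 2.98 ± 0.46 SE at adjusted p = 0.00807). The tryptophan synthase gene Gh_D13G160500 had 36.9 ± 3.61 and 23.7 ± 4.70 FPKM (SD, n = 3 each; edgeR adjusted p = 0.101). The DAO gene Gh_A07G203400, whose product oxidizes auxin, fell from 12.9, 7.94 and 8.41 FPKM to 3.04, 3.84 and 4.47 FPKM (edgeR log2 change −1.07 ± 0.27 SE at adjusted p = 0.0301). Of 9 tested hydrolases, which release auxin from its amino acid conjugates, 0 were called by edgeR and 0 by DESeq2, 3 had an unadjusted p under 0.05, beside 39.5% of all genes tested, and quantile normalization called 1. The most abundant, the ILR1-like 1 gene Gh_D05G029600, had 12.8, 17.3 and 20.4 FPKM and then 12.1, 11.9 and 10.9 FPKM (edgeR adjusted p = 0.393). The calls of Gh_D06G224000, Gh_D12G030800, Gh_D06G113000, Gh_A07G240800, Gh_D12G137800 and Gh_A13G028700 held with each library left out. Those of Gh_A05G061200, Gh_D05G187700 and Gh_A07G203400 held in 3, 1 and 1 of the 6 cases, with an adjusted p of up to 0.0813, 0.148 and 0.110.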

How the data were processed

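Poly(A) RNA of 6 fiber libraries was sequenced, 3 per stage, and groups came from the sample titles. Per the file headers the authors' table gives a read count and an FPKM value per gene and library. The deposited counts are whole numbers, and the deposited FPKM equal count over model length and library total within a relative 6.9e-06. HISAT and StringTie are named in the submitters' processing notes. Build, annotation and strandedness of the counting were not given in the sources used here, and coordinates are the file's. Reads of near-identical copies, A and D copies included, could be divided between copies, so values of single copies are uncertain. Of the table, 2 empty lines were left out.

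Genes with a mean of at least 1 FPKM were tested with edgeR 4.0.16 (quasi-likelihood, TMM, two-sided, R 4.3.3) over the whole table, with Benjamini-Hochberg adjustment and a threshold of 0.05. Replicates varied by 28% (edgeR's common coefficient). The procedure was first tested on simulated data. SE is the log2 change over the root of the F statistic. Alternatives were DESeq2 1.42.0, limma 3.58.1 with pseudocounts of 1 and 0.1, limma-voom with quantile normalization, library totals, other minimum levels, a replicate block and each library left out. Genes named by rule are, per role, the 4 with the highest mean FPKM plus the 3 largest called rises and falls. Per other list they are the most abundant and the most changed called gene. Other genes in the text were picked outside that rule, with their values known. Members and lists were chosen with earlier results of these data known.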

Additional observations from a re-analysis of the deposited data

How the results depend on the processing

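The count of 19 called members was 10 with a minimum mean of 5 FPKM, where 10 of the 19 were no longer tested, and ran from 7 to 25 with each library left out. It was 24 with library totals alone, 23 by DESeq2, 25 and 24 by limma with pseudocounts of 1 and 0.1, 20 under quantile normalization, 28 with no minimum level and 19 without the jasmonic acid genes. None of the 19 was called in the other direction under any alternative. Over all genes tested, 9357 calls became 2319 to 11434 with each library left out, and the 77 calls of the other auxin lists became 34 to 94. Fewest members were called without 15DPA replicate 1 or 5DPA replicate 2 (7 each), then 5DPA replicate 1 (9) and 5DPA replicate 3 (10). Without 15DPA replicate 2 or 3 more were called, 25 and 22. Every such fit has fewer degrees of freedom, and why the counts differed between them was not tested. After division by the TMM factors the ratio of summed FPKM moved from 1.18 to 1.44 for PIN-LIKES and from 0.632 to 0.771 for receptors. Deviations from the stage mean correlated at −0.262, 0.29 and 0.0587 between same-numbered libraries (numbers 1, 2 and 3). Between libraries of unlike number they ran from −0.318 to 0.224. With 3 libraries per stage such correlations cannot decide whether the numbers pair the samples. With the number as a replicate block 16 members (8 higher, 8 lower), 8967 of all genes and 74 genes of the other lists were called. Of the 19 calls 14 held there, and influx carriers had 1 lower where the fit without the block had 3.

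With 3 libraries per stage, single values cannot be tested below an exact permutation p of 0.1, and genes under 1 FPKM rest on few reads.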
